A study of Mus musculus with 2 samples.

Results

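The genes described here are the cyclins, the cyclin-dependent kinases (Cdk), the genes with Cdkn symbols, the cell division cycle (Cdc) genes and the E2f transcription factors of the mouse. They were taken by symbol from the protein-coding genes of the RefSeq annotation of GRCm38.p6, the assembly that mm10 denotes, and numbered 94 of 21900: 25 cyclins, 19 Cdk kinases, 10 Cdkn genes, 32 Cdc genes and 8 E2f factors. Cdk3 and Cdc34b, annotated as pseudogenes, were left out. The data were peaks of H3K9bhb, histone H3 carrying β-hydroxybutyrate on lysine 9, from 1 ChIP-seq library of CD8+ memory T cells, and 1 input DNA library of the same cells completed the series. The cells were C57BL/6 OT-I splenocytes, whose transgenic T cell receptor recognises an ovalbumin peptide. They received the peptide at 200 ng/ml with IL-2 at 10 ng/ml for 3 days and IL-15 at 10 ng/ml for 4 days, and were exposed to β-hydroxybutyrate (BHB) for 3 days. Both libraries come from BHB-treated cells, the labels leave the BHB concentration out, and untreated cells were not analysed here. A peak here says that the mark was called under BHB, and no change caused by BHB can be read from it. How many mice or cultures the cells came from is not stated in the labels. The list held 2315 summits in 2204 peaks, each with the authors' score, −log10 of a p or q value. The labels give 70 M reads per library. Reads behind single peaks were not analysed here, and their number is unknown.

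Cyclins bind and activate Cdk kinases. D-type cyclins with Cdk4 or Cdk6, and then E-type cyclins with Cdk2, phosphorylate the retinoblastoma protein and its relatives, which releases E2f factors to drive genes of DNA replication. Cdk inhibitors of the INK4 and Cip/Kip families restrain these kinases, Cdc25 phosphatases activate them, and the anaphase promoting complex ends mitosis by having cyclin B destroyed. Other cyclin-kinase pairs act on RNA polymerase II, among them cyclin C with Cdk8 in the Mediator kinase module and cyclin T with Cdk9 in the elongation factor P-TEFb. Memory T cells are largely quiescent but keep the ability to divide fast on recall. Whether the cultured cells used here were dividing cannot be read from the peak list.

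Peaks were assigned to any gene that contained a summit or ended within 5 kb of it. Of the 94 genes, 18 (19.1%, exact 95% interval 11.8 to 28.6) had one. Over all protein-coding genes the share was 11.4% (2489 of 21900). The 18 were the cyclin genes Ccne1, Ccnj, Ccnk and Ccno, the kinase genes Cdk6, Cdk8 and Cdk9, the Cdkn genes Cdkn2b, Cdkn2c, Cdkn2aip and Cdkn2aipnl, the Cdc genes Cdc7, Cdc20b, Cdc25a, Cdc27, Cdc37 and Cdc42se2, and E2f7. They held 20 peaks on 11 chromosomes, and Cdk6 and Cdk8 had more than 1 each. The interval covers counting error only, since all genes were read from 1 library. No test between conditions was possible.

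The annotated promoters show where these peaks lie. RefSeq promoter windows, from 250 bases before to 50 bases after an annotated start, were at hand for 79 of the 94 genes and for all 18 with a peak. The genes with no entry were Ccna2, Ccnd1, Ccnd2, Ccne2, Ccnh, Ccny, Cdk5, Cdk17, Cdk19, Cdkn1c, Cdc23, Cdc25c, Cdc42bpg, E2f4 and E2f5. Of the 79, 17 (21.5%, 95% interval 13.1 to 32.2) had a summit within 2 kb of their own start, against 9.58% of all protein-coding genes with such a window (1676 of 17492). The 250 bases before the start follow for 7 of the 8 genes with the highest-scoring summit within 300 bp of a start. They are shown because the summits of E2f7, Cdc37, Cdkn2aip and Ccne1 fall inside them, at 81, 21, 107 and 205 bases before the start. Those of Cdkn2b, Cdc25a and Cdk8 lie 257, 240 and 189 bases after it. Sequences are from RefSeq (GRCm38.p6), written 5′ to 3′ on the strand of the gene. Capitals mark exact matches, on either strand, to the E2F octamers TTTCCCGC, TTTGGCGC, TTTCGCGC and TTTGCCGC, to TTTGAA (the CHR element of late cell cycle promoters), to CCAAT (the NF-Y box) and to GGGCGG (the Sp box).
E2f7 (chr10:110745189-110745438, plus strand): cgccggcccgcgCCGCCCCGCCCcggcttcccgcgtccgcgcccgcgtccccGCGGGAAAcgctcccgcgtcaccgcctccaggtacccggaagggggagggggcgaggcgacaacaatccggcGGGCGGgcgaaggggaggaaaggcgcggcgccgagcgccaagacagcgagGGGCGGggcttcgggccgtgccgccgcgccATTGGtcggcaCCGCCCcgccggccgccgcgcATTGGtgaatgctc
Cdc37 (chr9:21149935-21150184, minus strand): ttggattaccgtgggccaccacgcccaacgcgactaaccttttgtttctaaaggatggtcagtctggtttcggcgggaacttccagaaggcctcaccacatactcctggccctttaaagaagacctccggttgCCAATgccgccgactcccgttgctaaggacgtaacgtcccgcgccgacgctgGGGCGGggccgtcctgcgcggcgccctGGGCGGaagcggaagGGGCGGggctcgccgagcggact
Cdkn2b (chr4:89311033-89311282, minus strand): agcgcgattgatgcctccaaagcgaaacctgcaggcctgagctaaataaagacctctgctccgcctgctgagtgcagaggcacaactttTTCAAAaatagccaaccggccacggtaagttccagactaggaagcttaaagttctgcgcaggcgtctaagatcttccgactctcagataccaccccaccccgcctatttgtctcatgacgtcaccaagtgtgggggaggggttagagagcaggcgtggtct
Cdc25a (chr9:109875329-109875578, plus strand): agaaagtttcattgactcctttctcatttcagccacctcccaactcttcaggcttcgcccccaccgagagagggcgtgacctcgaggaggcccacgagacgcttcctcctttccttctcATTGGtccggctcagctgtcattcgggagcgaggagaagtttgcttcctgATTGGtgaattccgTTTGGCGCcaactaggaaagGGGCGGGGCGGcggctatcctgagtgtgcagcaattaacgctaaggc
Cdk8 (chr5:146231000-146231249, plus strand): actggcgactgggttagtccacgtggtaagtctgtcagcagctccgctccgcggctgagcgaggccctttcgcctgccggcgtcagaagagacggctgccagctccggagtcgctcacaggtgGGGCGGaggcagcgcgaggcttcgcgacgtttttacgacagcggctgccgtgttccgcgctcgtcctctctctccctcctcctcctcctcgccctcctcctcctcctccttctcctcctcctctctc
Cdkn2aip (chr8:47713932-47714181, minus strand): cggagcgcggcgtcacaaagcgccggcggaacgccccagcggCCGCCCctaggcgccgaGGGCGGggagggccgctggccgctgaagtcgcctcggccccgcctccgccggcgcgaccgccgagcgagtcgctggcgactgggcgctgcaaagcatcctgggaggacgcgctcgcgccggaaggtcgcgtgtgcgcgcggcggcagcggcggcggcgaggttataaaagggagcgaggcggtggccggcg
Ccne1 (chr7:38107491-38107740, minus strand): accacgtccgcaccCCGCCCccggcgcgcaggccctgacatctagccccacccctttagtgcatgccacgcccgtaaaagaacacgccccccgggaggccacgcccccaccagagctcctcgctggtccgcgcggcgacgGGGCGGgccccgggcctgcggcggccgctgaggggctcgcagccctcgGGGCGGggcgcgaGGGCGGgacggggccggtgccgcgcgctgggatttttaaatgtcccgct

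Matches to an E2F octamer were few. In the printed stretches they occurred in E2f7, 198 bases before the start, and in Cdc25a, 67 bases before the start. The Cdc25a match is flanked by matches to CCAAT at 131 and 81 bases and by overlapping matches to GGGCGG at 47 and 42 bases before the start. E2f7 also carries CCAAT matches at 46 and 14 bases and 5 matches to GGGCGG, of which the one at 76 bases lies beside the summit. The Ccne1 stretch holds 4 matches to GGGCGG and none to the other motifs, and that of Cdkn2b holds 1 match to TTTGAA. Across the 300-base windows, an E2F octamer was found in 2 of 19 windows (10.5%) of the cell cycle genes with a summit within 2 kb of that start, in 7 of 74 (9.46%) of those without, and in 2.85% of the 21263 windows of all protein-coding genes. Over all genes the shares were 4.62% of windows with a summit and 2.67% of those without. With 2 matches among the cell cycle windows with a summit, a difference between those with and without one cannot be read, and none was tested. A match describes letters in a window and does not show binding. Only exact letters were searched, so the lack of a match does not exclude a variant site.

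The promoters of the cell cycle genes were rich in CpG dinucleotides. The windows with a summit had a median of 30 CpG (quartiles 22 and 36.5, range 8 to 51) and a median GC content of 65.7%, and those without a summit had 22 CpG and 61.7% GC. Over all protein-coding genes the medians were 27 CpG and 66.7% GC with a summit and 11 CpG and 55.3% GC without. Windows of all genes with 30 or more CpG had a summit in 24.9% of cases, and those with under 10 CpG in 1.28%. In the CpG-richest bin 10 of 29 windows (34.5%) of the cell cycle genes had a summit. From 20 to 29 CpG it was 6 of 30 (20%) against 15.9% of all windows, and from 10 to 19 CpG 2 of 25 (8%) against 7.64%. Under 10 CpG it was 1 of 9 (11.1%), a window of Cdkn2c. If each bin of CpG count had held the share of all genes, 14 of the 93 windows (15.1%) would have had a summit, where 19 (20.4%) did and where all windows together had 9.26%. With 5 bins of GC content the value was 12.4 windows (13.3%). Windows were counted, not genes: the 93 windows belong to 79 genes and the 19 with a summit to 17. Cdc7 and Cdkn2c each count with 2 windows beside the same summit. CpG content therefore moved with the higher share of the cell cycle genes, and its part in that result was not tested.

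**Figure D1:**
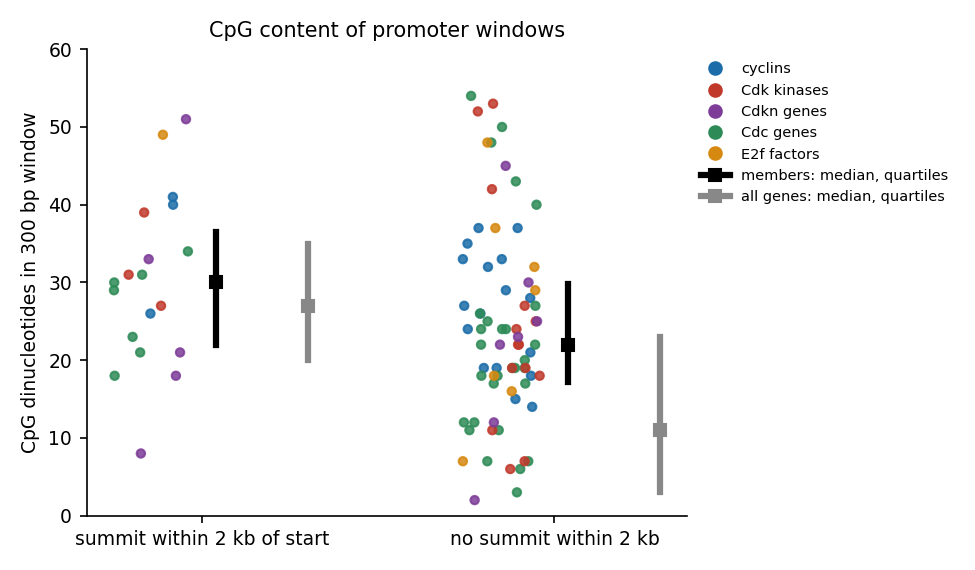
CpG dinucleotides (y axis, count per 300-base promoter window) of the cell cycle genes, split by whether a summit lay within 2 kb of that start. Points are windows coloured by gene class, and bars give the median and quartiles for these genes (black) and for all protein-coding genes (grey). The black medians are 30 and 22, and the grey ones 27 and 11.

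The summits sat close to the starts. Of the 20 gene-peak pairs, 17 (85%, 95% interval 62.1 to 96.8) lay within 2 kb of the gene's own start, and all 17 lay between 612 bases before and 383 bases after it. For all protein-coding genes the share was 80.6% (1716 of 2128 pairs, 95% interval 78.9 to 82.3), and a further 5.08% lay within 2 kb of the transcript end only. None of the 20 did so. In 16 of the 17 the distance was 500 bp or less, against 86.5% for all genes. The summit was upstream of the start in 8 of the 17 (47.1%, 95% interval 23 to 72.2) and downstream in 9, and upstream in 31.2% of pairs over all genes, a value inside that interval. Upstream refers to the nearest annotated start: the upstream summits of Ccnk, Cdc20b and Cdkn2c still lay inside the annotated gene. The median position was 26 bases after the start, compared with 104.5 bases over all genes. The 3 pairs elsewhere were a summit 5919 bases beyond the start of Ccno, the first Cdk6 summit and the summit deep inside Cdk8. That Cdk6 summit was 2533 bases before the annotated start, but 356 bases inside the start-side end of the annotated gene.

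**Figure D2:**
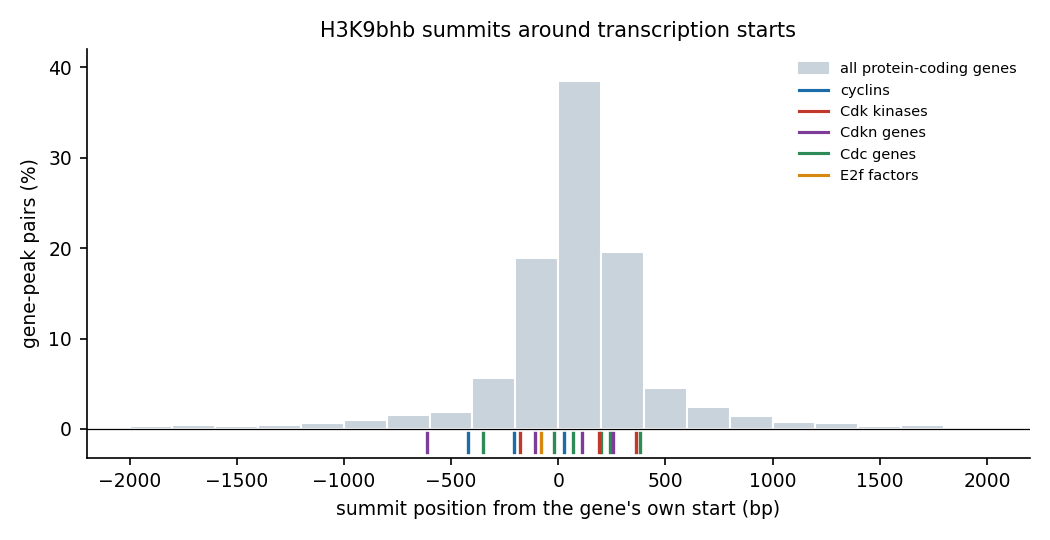
Position of summits relative to the gene's own annotated start (x axis, bp, positive in the direction of transcription). Bars give the percentage of gene-peak pairs per 200 bp over all protein-coding genes within 2 kb (1716 pairs), and coloured ticks below the axis are the 17 cell cycle genes by class, which all lie between −612 and 383 bp.

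Scores of these peaks resembled those of the whole list. Without the peak deep inside Cdk8 the 19 others ranged from 2.06 to 13.2, with a median of 5.12 and quartiles of 4.28 and 8.11, and the 2204 peaks of the list had a median of 5.04 and quartiles of 3.33 and 6.78. Of the 20 peaks, 11 were above that median. Scores were coarse, so that ties are common: 48 peaks had exactly the score of the stronger Cdk6 peak and 29 that of Ccne1. Score rises with local read depth and was used to describe and rank peaks within the list only.

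**Figure D3:**
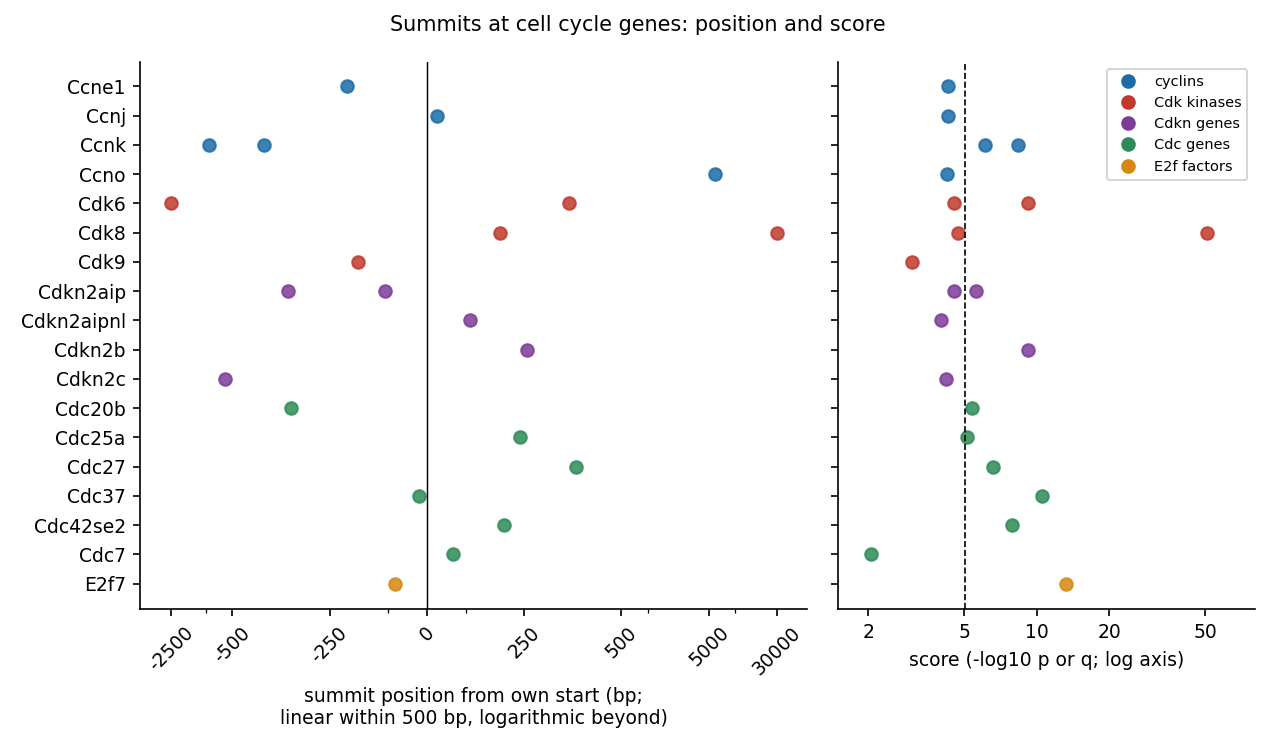
All summits at the 18 genes, by class. The left panel gives the position from the gene's own start (x axis, bp, linear within 500 bp and logarithmic beyond), and the right panel the score (−log10 p or q, logarithmic axis) with a dashed line at the list median of 5.04. Most points lie within 500 bp of a start and score under 14, and the summit 29863 bp inside Cdk8 scores 50.5.

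Among the cyclins, 4 of 25 (16%, 95% interval 4.54 to 36.1) had a peak, against 11.4% of all protein-coding genes. None of the 4 was a cyclin of types A, B or D. Ccne1 (chromosome 7, 38097984 to 38107490), which encodes the cyclin E1 that drives entry into S phase with Cdk2, had a summit 205 bases before its start, at 38107695, with a score of 4.29. Ccnk (chromosome 12, 108179308 to 108203359), the cyclin partner of Cdk12 and Cdk13, had the highest score among the cyclins, 8.34. Its peak had summits at 108178820 (6.08) and 108179318, which lie 918 and 420 bases before the annotated start. Both also lie inside Setd3, an actin histidine methyltransferase gene on the opposite strand, at 525 and 27 bases from its start-side end, so the peak lies at the starts of both genes. Ccnj (chromosome 19, 40830959 to 40848572) had a summit 26 bases after its start, at 40831305, with a score of 4.29.

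The Ccno call depends on the flank. Ccno (chromosome 13, 112987802 to 112990778) encodes an atypical cyclin needed to make multiciliated cells, and the summit at 112993721 (score 4.26) was 2943 bases beyond it. That summit was inside Mcidas, a regulator of the same cell type, 140 bases from its end, and Ccno was the 1 gene of the 18 whose peak lay nearer to an end of another protein-coding gene.

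Of 10 cyclins of types A, B, D and E, 1 had a peak (10%, 95% interval 0.253 to 44.5), near the 11.4% of all genes. Among the D-type cyclins, Ccnd2 was 15.4 kb from the closest summit, Ccnd3 29.7 kb and Ccnd1 951 kb. Ccne2 was 34 kb away, Ccna1 54.6 kb, Ccnb2 82.1 kb, Ccnb1 127 kb, Ccna2 290 kb and Ccnb3, on the X chromosome, 579 kb. Of the 7 cyclins of transcription and RNA processing, Ccnk alone had a peak, and Ccnc, Ccnh, Ccnl1, Ccnl2, Ccnt1 and Ccnt2 were between 115 and 4226 kb from one. The remaining cyclins Ccnf, Ccng1, Ccng2, Ccni, Ccnq and Ccny also had none, with Ccng1 the farthest of all 94 genes at 7547 kb.

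Of the 19 Cdk kinases, 3 (15.8%, 95% interval 3.38 to 39.6) had a peak, near the 11.4% of all protein-coding genes. Cdk6 (chromosome 5, 3341004 to 3531008), the D-type cyclin partner that is prominent in lymphocytes, had separate peaks at 3341360 (9.18) and 3344258 (4.54). The weaker one was 365 bases after the annotated start. The stronger one lay 356 bases inside the start-side end of the annotated gene, which is on the plus strand. It was 2533 bases before the annotated start and inside the long non-coding RNA gene Gm36470. Cdk9 (chromosome 2, 32705782 to 32712784), the kinase of P-TEFb, had a summit 178 bases before its start, at 32712962, with a low score of 3.03 that 82.3% of peaks reached or passed. This summit also lies inside the microRNA gene Mir3960. Cdk8 had the remaining peaks.

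No other kinase gene had a peak. Cdk2 was 23.8 kb from the closest summit, Cdk4 25.6 kb, Cdk7 45.5 kb and Cdk1 744 kb. The summit nearest to Cdk4 was at Agap2 and scored 25.5. Cdk10 was the closest of all genes without a peak, at 12.1 kb, so no gene lay between the 5 kb limit and that distance, and Ccno, at 2943 bp, was the farthest gene inside it. Cdk5, Cdk11b, Cdk12, Cdk13, Cdk14, Cdk15, Cdk16, Cdk17, Cdk18, Cdk19 and Cdk20 were 44.9 to 2285 kb away. Split by role, 1 of 4 cell cycle kinases and 2 of 7 transcription kinases had a peak, counts too small to order the groups.

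Cdk8 had peaks at its start and deep inside the gene. Cdk8 (chromosome 5, 146230795 to 146302874) had a summit 189 bases after its start, at 146231439, with a score of 4.70, which 51.7% of peaks reached or passed. The other summit, at 146261113, was 29863 bases from the start and 41761 bases from the transcript end, 42.1% of the way along the gene. It scored 50.5 and ranked 11 of 2204 peaks. No other annotated gene lay within 2 kb of it; the closest end of one, that of Gm38745, was 32078 bp away, and the closest other summit was the one at the Cdk8 start. Of the 283 peaks inside protein-coding genes and over 2 kb from every end of a protein-coding gene, the Cdk8 peak ranked 4. The median score of the 283 was 4.54 and the upper quartile 6.63. Ends of non-coding genes were not used to choose these 283. The Cdk8 peak was 1 of 20 peaks scoring over 20, of which 8 were on the mitochondrial genome, where there are no histones. The input library and the sequence at this position were not analysed here, so their part in the score was not tested. With all peaks scoring over 20 left out, Cdk8 still counted as a gene with a peak through the summit at its start.

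Among the 10 Cdkn genes, 4 (40%, 95% interval 12.2 to 73.8) had a peak, against 11.4% of all protein-coding genes. The symbol covers unlike proteins. Of the 7 that encode Cdk inhibitors, 2 (28.6%, 95% interval 3.67 to 71) had one, both of the INK4 family that binds Cdk4 and Cdk6. Cdkn2b (chromosome 4, 89306289 to 89311032; p15INK4b) had a summit 257 bases after its start, at 89310775, with a score of 9.18, which 11% of peaks reached or passed. This position is also inside the long non-coding RNA gene Gm12610. Cdkn2c (chromosome 4, 109660876 to 109666756; p18INK4c) had a summit at 109665984, which lies between its annotated starts, 612 bases before one and 772 bases after the other, and scored 4.22.

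The other inhibitor genes had no peak. Cdkn2a, the neighbour of Cdkn2b, was 16.2 kb from the closest summit, which was that of Cdkn2b. Cdkn2d was 139 kb away. Of the Cip/Kip family, Cdkn1c was 19.8 kb, Cdkn1a 119 kb and Cdkn1b 279 kb from a summit. The remaining peaks of the class were at Cdkn2aip (chromosome 8, 47709344 to 47713931), which encodes a binding partner of the ARF product of Cdkn2a, and at its relative Cdkn2aipnl (chromosome 11, 51967631 to 51977336). The Cdkn2aip summits at 47714038 (4.54) and 47714287 (5.625) were 107 and 356 bases before the start. That of Cdkn2aipnl at 51967741 (3.998) was 110 bases after it. Cdkn3, a phosphatase that acts on Cdks, was 60.8 kb from a summit.

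Of the 32 Cdc genes, 6 (18.8%, 95% interval 7.21 to 36.4) had a peak, against 11.4% of all protein-coding genes. These 6 too span several functions. Cdc37 (chromosome 9, 21139431 to 21149934), the cochaperone that delivers kinases such as Cdk4 to Hsp90, had the highest score of the class, 10.5. Its summit at 21149955 was 21 bases before the start and 13 bases from an end of the long non-coding RNA gene Gm35977. Cdc25a (chromosome 9, 109875518 to 109893895), a phosphatase that activates Cdk2 and Cdk1, had a summit 240 bases after its start, at 109875819, with a score of 5.12. Cdc27 (chromosome 11, 104502524 to 104550620), a subunit of the anaphase promoting complex, had one 383 bases after its start, at 104550237, with a score of 6.595. The annotated span of Myl4 also covers that position.

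Cdc7 (chromosome 5, 106964315 to 106984440), the kinase that fires replication origins, had the lowest score of all, 2.06, which 99.1% of peaks reached or passed. Its summit at 106964390 was 68 bases after one annotated start and 171 bases before the other. Cdc20b (chromosome 13, 113034975 to 113121019), a relative of the mitotic activator Cdc20, had a summit at 113035029 (5.41), 350 bases before the start and 954 bp from Mir449c. Cdc42se2 (chromosome 11, 54717415 to 54787703), a small effector of the GTPase Cdc42, had one 199 bases after its start, at 54787504, with a score of 7.89. Cdc42 and the genes named after it belong to cell polarity rather than division, and 1 of these 11 had a peak (9.09%, 95% interval 0.23 to 41.3). Of the 21 other Cdc genes 5 had one (23.8%, 95% interval 8.22 to 47.2). The intervals overlap, which is no test, and counts this small cannot order the groups.

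Well known Cdc genes without a peak were Cdc6 (36.8 kb from the closest summit), which loads the replicative helicase, Cdc45 (282 kb), a part of that helicase, Cdc25b (280 kb) and Cdc25c (180 kb), the mitotic phosphatases, and Cdc20 (758 kb). The other Cdc subunits of the anaphase promoting complex, Cdc16, Cdc23 and Cdc26, were 87.9, 280 and 71.5 kb away. The nearest of the rest was Cdc34, a ubiquitin-conjugating enzyme, at 15999 bp, then Cdc42bpb at 18.2 kb. Cdc5l, Cdc14a, Cdc14b, Cdc37l1, Cdc40, Cdc73, Cdc123, Cdc42, Cdc42bpa, Cdc42bpg, Cdc42ep1, Cdc42ep2, Cdc42ep3, Cdc42ep4, Cdc42ep5 and Cdc42se1 lay 26.5 to 916 kb from a summit.

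Of the 8 E2f factors, 1 (12.5%, 95% interval 0.316 to 52.7) had a peak, near the 11.4% of all protein-coding genes. E2f7 (chromosome 10, 110745439 to 110787384), an atypical E2f that represses cell cycle genes without a Dp partner, had a summit 81 bases before its start, at 110745358. Its score of 13.2 was the highest at any start among the 94 genes, and 2.50% of peaks reached or passed it. E2f8, the other atypical factor, was 897 kb from a summit. The activators E2f1, E2f2 and E2f3 were 222, 115 and 150 kb away, and E2f4, E2f5 and E2f6, which mostly repress, were 42.6, 4139 and 67.9 kb away. For E2f1 to E2f6, 0 of 6 leaves an upper 95% limit of 45.9%, so a share as large as that of the other classes cannot be told from this count.

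The classes could not be told apart with counts this small. Their shares ran from 12.5% for the E2f factors to 40% for the Cdkn genes. The 95% intervals of all 5 classes overlapped each other, which does not test for a difference or show that there is none. Genes of the classes also differ in length, with a median of 5.50 kb for the Cdkn genes and 26.2 kb for the Cdk kinases. The 76 genes without a peak were between 12.1 and 7547 kb from the closest summit, with a median of 119 kb, and 42 of them were over 100 kb away. Median distances were 174 kb for cyclins, 87.9 kb for Cdk kinases, 90 kb for Cdkn genes, 102 kb for Cdc genes and 150 kb for E2f factors. Ccnb3 and Cdk16, the 2 genes on the X chromosome, had no peak.

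**Figure D4:**
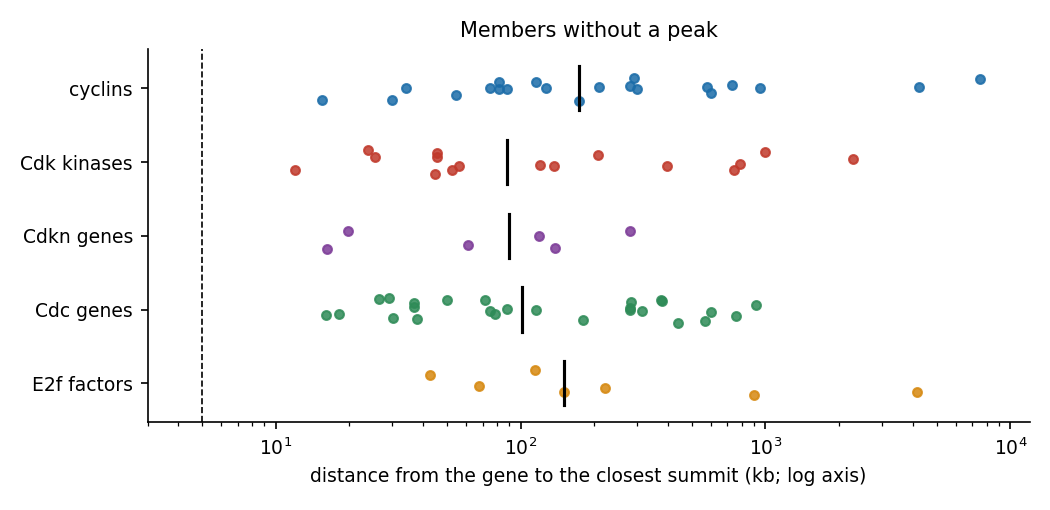
Distance from each of the 76 genes without a peak to the closest summit (x axis, kb, logarithmic), by class. Points are genes, black bars are class medians between 87.9 and 174 kb, and the dashed line marks the 5 kb limit. No gene lies between that limit and 12.1 kb.

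Genes that work with these families were counted the same way in 7 pathway lists. The retinoblastoma relatives, Dp partners and the DREAM/MuvB complex, which together hold E2f target genes silent in quiescence or switch them on later, had the largest share, 6 of 12 (50%, 95% interval 21.1 to 78.9). That interval overlapped those of all the other lists, so counts this small cannot order the lists. Rbl1 (10.5) and Rbl2 (7.95), which encode the pocket proteins p107 and p130, had summits 135 and 179 bases after their starts. Rbbp4 (7.70), a histone-binding subunit, had its stronger summit 12 bases before the start. The others were Lin9 (6.01), a MuvB subunit with a summit 379 bases inside a gene end, and Tfdp1 (5.045), the main Dp partner of E2f factors, with a summit 427 bases after the start. Foxm1 (3.17), a driver of mitotic genes, had a summit 217 bases outside its end and nearer to an end of Rhno1. Rb1, Tfdp2, Lin37, Lin52, Lin54 and Mybl2 had none.

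The mitotic list had 3 of 14 genes with a peak (21.4%, 95% interval 4.66 to 50.8). The 11.4% of all protein-coding genes lies inside that interval and inside that of the checkpoint and p53 list (3.19 to 65.1). Wee1 and Pkmyt1, the kinases that hold Cdk1 inactive, had summits 152 and 14 bases inside a gene end with scores of 11.9 and 6.78. Mad1l1, of the spindle checkpoint, had one 153 bases after its start (4.26). In the checkpoint and p53 list 2 of 8 genes had a peak: Mdm2 (7.53), which degrades p53, and Atr (4.03), a replication stress kinase, with 1700065D16Rik ending closer to the summit.

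Lists of the machinery around the kinases came next, each with a 95% interval that holds the 11.4% of all protein-coding genes. Origin licensing and firing had 2 of 20 (10%, 95% interval 1.23 to 31.7), near the background of all genes. The Orc3 summit (5.045) was 54 bases after its start, 75 bp from an end of Orc3 and 69 bp from one of Rars2. That of Orc1 (4.54) lay 3918 bp outside the gene and 8 bp from an end of Cc2d1b. The anaphase promoting complex had 1 of 14, Anapc4 (7.01), with a summit 110 bases before the start. With the 4 Cdc subunits and Cdc20 added, 2 of 19 had a peak. The SCF ubiquitin ligases had 3 of 10 (30%, 95% interval 6.67 to 65.2), namely Skp1 (3.51) and Fbxw7 (2.51), 145 bases after and 120 bases before a start, and Cks2 (3.33), whose summit was nearer to Secisbp2. Partners of Cdks in transcription had 2 of 12 (16.7%), among them Aff1 (6.83), a scaffold of P-TEFb complexes. Med12 and Med13, which join Cdk8 in the Mediator kinase module, had none.

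The labelled cell type was set against 12 genes of CD8 T cell identity, among them Cd8a, Cd8b1, Cd3e and Lck. None (0 of 12) had a peak. With 3 counts as the limit for a count of 0, a share of 25% would be allowed, and the exact 95% limit is 26.5%. The 11.4% of all protein-coding genes lies under both limits, so a lower share than over all genes cannot be read from this count. A peak is not expression, so this count neither identifies the cells nor speaks against the label.

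**Figure D5:**
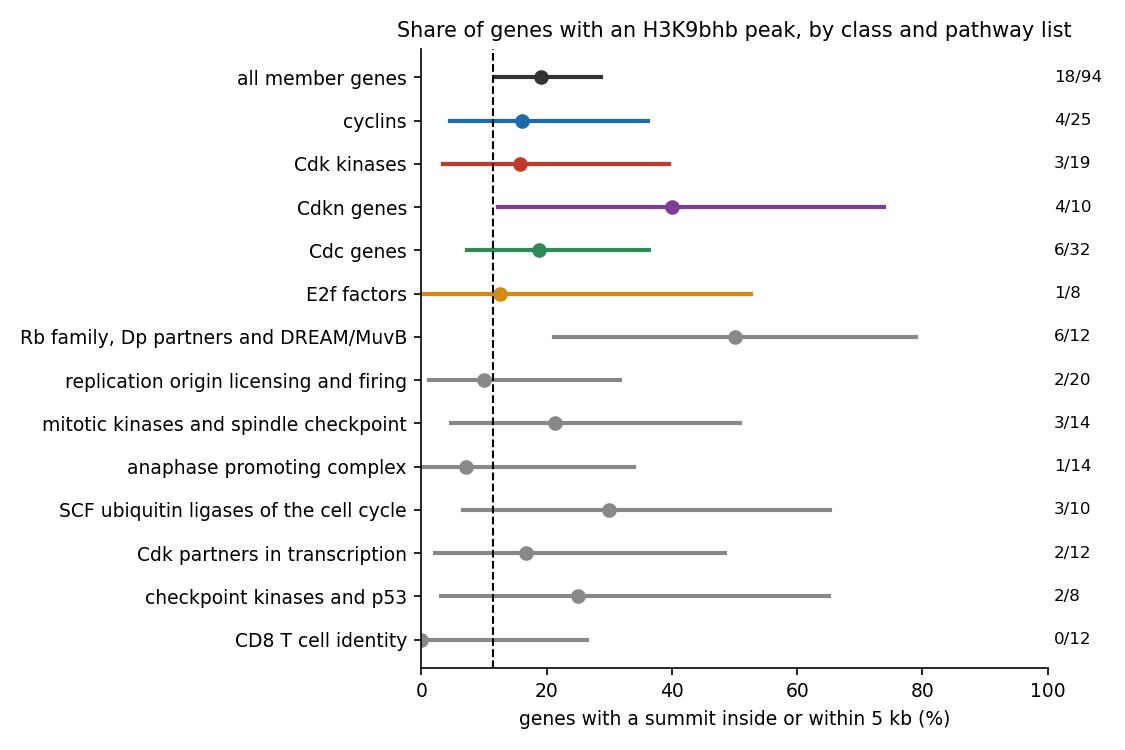
Percentage of genes with a summit inside or within 5 kb (x axis) for the cell cycle genes, their 5 classes (coloured) and the pathway lists (grey). Points are shares, lines exact 95% intervals, numbers at the right counts of genes, and the dashed line the 11.4% of all protein-coding genes. The lower interval limits of all 94 genes (11.8%), the Cdkn genes (12.2%) and the retinoblastoma and DREAM list (21.1%) lie above that line, and these limits cover counting error only. Genes and lists were chosen with earlier results of these data known, so a limit above the line describes the count and tests nothing. For the 7 Cdkn genes that encode Cdk inhibitors the lower limit was 3.67%.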

How the data were processed

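One H3K9bhb ChIP-seq peak list was analysed. Per the labels' protocols, 4 µg of antibody was used and paired-end reads were 150 bp long. The submitters' processing notes name FastQC 0.11.8, Trimmomatic 0.39, Bowtie2 2.3.5, MACS2 2.1.2 and build mm10. Peak-calling settings, the use of the input, and the handling of duplicates, repeats and blacklisted regions are not stated in the sources used here. The authors deposited a −log10 p or q value for each 1 bp summit, with no statement of which it is.

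Members were matched by symbol to protein-coding genes of a RefSeq table of GRCm38.p6, and any summit inside a gene or within 5 kb counted. Strand and starts came from RefSeq promoter windows, with the nearest start used where a gene has several. Member genes, pathway lists and motifs were chosen with earlier results of these data known. The genes named are every member with a peak, core members without one with their distance to a summit, and up to 5 genes per list with a peak by score; other names complete a class or list. One list gene with a peak and 1 promoter sequence are not reported here. Of the list genes, 102 distinct symbols matched. Intervals are exact (Clopper-Pearson, 95%) and cover counting error only. With 1 ChIP library there is no replicate and no p-value. Counting was tested on simulated summits. Tools were matplotlib 3.10.9, scipy 1.17.1, pandas 2.3.3, numpy 2.4.6 and Python 3.11.15. Alternatives covered flanks, score thresholds, summits per peak, assignment to the nearest gene and membership. Bins of CpG and GC content were added after seeing the data.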

Additional observations from a re-analysis of the deposited data

How the results depend on the processing

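The alternatives gave 54 values, for the share of genes with a peak, per class and in all, and for the share of peaks near a start. Of these, 51 stayed inside the 95% interval of the value given above and 3 did not. That is a weak check, since class intervals were wide, such as 12.2 to 73.8% for the Cdkn genes. A 10 kb flank, the highest-scoring summit of each peak and the removal of peaks scoring over 20 left the gene count of every class unchanged. In the top 50% of peaks by score 11.7% of all 94 genes (11 genes) and 4% of the cyclins (1 of 25, Ccnk) had a peak, where 5.77% of all protein-coding genes did, since fewer peaks were used. With summits inside the gene only, 0% of the E2f factors had one, because the E2f7 summit lies 81 bases outside, and 12.8% of the 94 genes did (8.71% of all genes). With a 10 kb flank the 94 genes stayed at 19.1% while all genes rose to 13%. Without Cdc42 and the genes named after it the share was 20.5%. Depth per peak is unknown, so a gene without a peak may carry the mark below the calling threshold. No paired analysis was possible because the series has 1 ChIP library.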

Other observations

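Cyclin genes and the genes of their kinase partners were set side by side for 23 textbook pairs, a list written after the peaks were seen. In 0 of the 23 pairs did both genes have a peak. Of all cyclins 4 of 25 (16%) and of all Cdk kinases 3 of 19 (15.8%) had one, against 11.4% of all protein-coding genes. At such shares a pair with both is rare under any pairing, so the 0 cannot be read as avoidance. The cyclin alone had one in 3 pairs (Ccne1 with Cdk2, Ccnk with Cdk12 and with Cdk13), and the kinase alone in 6 (Cdk6 with Ccnd1, Ccnd2 and Ccnd3, Cdk8 with Ccnc, Cdk9 with Ccnt1 and Ccnt2). In the other 14 neither had one. The pairs share genes, so these counts are not independent of each other, and they were not set against other pairings.

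MicroRNA genes were annotated near the summits of Cdk9 and Cdc20b. The Cdk9 summit was inside Mir3960 and 74 bp from an end of Mir2861, and the Cdc20b summit was 954 bp from Mir449c. Only the genes' positions were compared, and no RNA was measured in this series.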
